A study of Homo sapiens with 4 samples.

Results

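The ZNF217 peaks on alternate haplotype sequences were described in MV4-11 and U937, 2 human acute myeloid leukemia lines of monocytic character. The human reference hg38 carries, beside 1 primary sequence per chromosome, extra sequences of regions that differ strongly between people, and their names end in _alt. A peak was a member when the name of its sequence ended so. There were 1106 such peaks among 37635 in MV4-11 (2.94%) and 685 among 22521 in U937 (3.04%). ZNF217, a zinc finger transcription factor, was mapped by CUT&Tag, in which a transposase tethered to an antibody tags the DNA around its target. The series holds 4 samples, a ZNF217 and an IgG library of each line, with no treatment or time point, and the ZNF217 peak lists were used here. MV4-11 carries a KMT2A fusion and U937 a PICALM fusion. Each line had 1 library, so the lines could not be compared against replicate error, and no p-value was calculated. The lists give positions without heights or counts, and the read depth is unknown.

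The longest alternates cover the major histocompatibility complex (MHC) of chromosome 6, which encodes the HLA molecules that present peptides to T cells, the proteins that load those peptides, complement components, inflammatory mediators, and many genes that every cell uses. The leukocyte receptor complex of chromosome 19 encodes paired activating and inhibitory receptors of myeloid and natural killer cells, and its alternates differ in their killer cell immunoglobulin-like receptor (KIR) genes. Chromosome 17 alternates include the inverted form of the KANSL1 region and the CC chemokine cluster. An aligner places a read on 1 of several equally good copies, so where copies are identical the copy of origin cannot be told apart.

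Markers on chromosomes 1 to 22 and X were examined first. A peak at most 1 kb from a start site of transcription (TSS) was present for 7 of 8 myeloid marker genes in MV4-11, all but LYZ. In U937 it was present for 4 of 8, with CEBPA, LYZ, MPO and CD14 lacking one. Of all protein-coding genes on these chromosomes 59.0% had such a peak in MV4-11 and 50.5% in U937. The U937 count was thus near the share of all genes. Of the markers of other lineages, CD3E, ALB, KRT5 and SNAP25 had no promoter peak in either line.

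The stretches of 100 bases below show how alike the copies were under the peaks, and they were read from hg38, 5′ to 3′ on the plus strand, at the peak midpoint or at the nearest place free of annotated untranslated exons. Each stretch was compared with every alternate that carries it, and capitals mark bases that differ between the printed copies. The first 4 loci follow the order of repetition in the MHC, the leukocyte receptor complex, chromosome 17 and elsewhere, and each was identical on the primary sequence and on every alternate, so 1 copy is given. LST1 (chr6:31586573-31586672, in an intron 76 bp from a TSS) has 7 alternate copies. CNOT3 (chr19:54137356-54137455, 343 bp upstream of a TSS) has 9, ABR (chr17:1040181-1040280, in an intron 634 bp from a TSS) has 2, and NDUFA6 (chr22:42090645-42090744, in a coding exon) has 3.
LST1: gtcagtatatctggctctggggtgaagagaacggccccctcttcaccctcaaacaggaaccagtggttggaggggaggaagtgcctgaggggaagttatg
CNOT3: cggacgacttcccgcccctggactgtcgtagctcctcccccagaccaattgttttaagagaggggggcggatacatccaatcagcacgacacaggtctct
ABR: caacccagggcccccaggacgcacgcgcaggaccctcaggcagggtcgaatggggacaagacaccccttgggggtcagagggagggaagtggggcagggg
NDUFA6: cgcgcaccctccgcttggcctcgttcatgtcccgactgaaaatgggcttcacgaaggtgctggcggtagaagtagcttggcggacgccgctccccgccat

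A further 3 loci were chosen after their values were seen, because a peak was called on alternates and not on the primary sequence. The PSMB8 stretch (chr6:32844680-32844779, upstream of the gene) was identical on the primary sequence and all 7 haplotypes. The HLA-C stretch (chr6:31271778-31271877, in a coding exon) differed at 2 bases between the primary sequence and MANN (chr6_GL000253v2_alt:2580820-2580919), which held an MV4-11 peak. It differed at 5 bases between the primary sequence and MCF (chr6_GL000254v2_alt:2614497-2614596), which held none. Of the 6 alternate copies of the HLA-C stretch, 2 were identical to the primary sequence, and MANN alone held a peak at this locus. Whether the differing bases bear on the peak was not tested. The MRPL45 stretch (chr17:38296860-38296959, upstream of the gene) differed at 1 base from its single alternate copy (chr17_KI270857v1_alt:2331891-2331990), which held a peak in both lines.
PSMB8: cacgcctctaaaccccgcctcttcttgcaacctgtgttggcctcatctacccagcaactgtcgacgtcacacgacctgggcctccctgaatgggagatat
HLA-C primary: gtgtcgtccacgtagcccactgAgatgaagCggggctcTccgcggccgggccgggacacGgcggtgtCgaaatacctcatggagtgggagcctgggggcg
HLA-C MANN: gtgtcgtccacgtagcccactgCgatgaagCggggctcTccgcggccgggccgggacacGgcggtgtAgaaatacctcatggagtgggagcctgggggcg
HLA-C MCF: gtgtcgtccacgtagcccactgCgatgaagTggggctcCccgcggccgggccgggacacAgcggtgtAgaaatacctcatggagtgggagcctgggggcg
MRPL45 primary: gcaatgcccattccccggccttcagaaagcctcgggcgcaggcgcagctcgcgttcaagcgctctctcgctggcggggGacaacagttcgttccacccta
MRPL45 alternate: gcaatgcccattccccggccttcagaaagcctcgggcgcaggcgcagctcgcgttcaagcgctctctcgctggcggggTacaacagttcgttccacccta

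ZNF217 peaks were almost as dense on the alternates as on chromosomes 1 to 22 and X. MV4-11 had 11.0 peaks per Mb of alternate sequence and 12.5 per Mb of the main chromosomes, and U937 had 6.80 and 7.47. Peaks lay on 125 of the 261 alternates in MV4-11 and on 106 in U937, while 128 alternates had no peak in either line. The median width was 599 bp on alternates and 622 bp on the main chromosomes in MV4-11, and 631 and 689 bp in U937. The median GC content of the peaks was 60.5% on alternates against 57.2% in MV4-11, and 59.8% against 58.5% in U937.

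The MHC held the most members. Of its 8 alternates the 7 long haplotypes carried 311 MV4-11 peaks and 267 U937 peaks, the leukocyte receptor complex 119 and 63, and the chromosome 17 alternates 125 and 77. Chromosome 19 alternates outside the receptor complex held 42 and 11, and chromosome 6 alternates outside the MHC 11 and 3. The alternates of all other chromosomes held 498 and 264, led by chromosome 8 in MV4-11 with 85 and by chromosome 16 in U937 with 39. Among these regions the lines were nearest in density in the MHC, at 11.2 peaks per Mb in MV4-11 and 9.61 in U937, and farthest apart on chromosome 19 outside the receptor complex, at 32.5 and 8.52. There, 1 alternate of 0.0617 Mb at the azurophil granule genes held 21 MV4-11 and 3 U937 peaks.

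Over all alternates together, the lines shared peaks about as often as they did on the main chromosomes. Sharing required an overlap of 1 bp or more with the other line's peak on the same alternate. In MV4-11, 454 of 1106 alternate peaks were shared (41.0%, 95% Wilson interval 38.2 to 44.0), against a background of 40.4% on chromosomes 1 to 22 and X. In U937 it was 453 of 685 (66.1%, 62.5 to 69.6), against a background of 68.6%. Both intervals include the background. The MV4-11 value rests on chromosome 6, since without its alternates 274 of 784 peaks were shared (34.9%, 31.7 to 38.4), below the background. Intervals cover counting error only, and copies of 1 locus on several haplotypes are not independent.

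The regions differed in this share. In the MHC 56.9% (51.4 to 62.3) of MV4-11 peaks were shared, above the 40.4% of the main chromosomes, while for the alternates of other chromosomes the share was 32.7% (28.8 to 37.0), below it. It was lower again on chromosome 19 outside the receptor complex, where 6 of 42 were shared (14.3%, 6.72 to 27.8). The leukocyte receptor complex, at 42.0% (33.5 to 51.0), and chromosome 17, at 44.0% (35.6 to 52.8), were near the background in MV4-11. In U937 the share was 82.5% (71.4 to 90.0) in the leukocyte receptor complex, against a background of 68.6%. Its 63 peaks formed only 20 loci, and the 311 MV4-11 peaks of the MHC 93. Both intervals are therefore too narrow to set these shares apart from the background. The U937 share was 66.7% (60.8 to 72.0) in the MHC, 68.8% (57.8 to 78.1) on chromosome 17 and 61.0% (55.0 to 66.7) on the alternates of other chromosomes. Few U937 peaks lay on the rest of chromosomes 19 and 6, where 6 of 11 and 3 of 3 were shared.

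Many MHC peaks that were not shared on their own haplotype faced a peak of the other line on another one. Of 134 such MV4-11 peaks in the MHC, 85 had a U937 peak at the same locus on another alternate, 6 had one only on the primary sequence, and 43 had none. Of 89 such U937 peaks, the numbers for MV4-11 were 56, 4 and 29. Over all alternates 456 of 639 unshared MV4-11 peaks and 138 of 230 unshared U937 peaks met no peak of the other line on any copy.

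**Figure D1:**
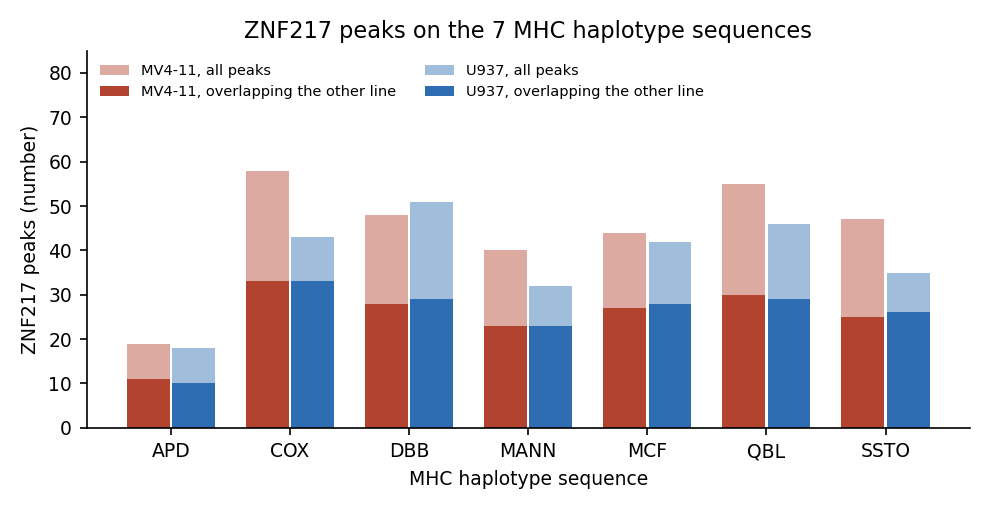
Number of ZNF217 peaks (vertical axis) on each of the 7 MHC haplotype sequences (horizontal axis) in MV4-11 (red) and U937 (blue), 1 library each. Dark bars are the peaks that overlap a peak of the other line on the same haplotype. APD, of which only 2.37 Mb is known sequence, has 19 and 18 peaks, and COX has the most in MV4-11 with 58.

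All 7 long haplotypes were occupied. In MV4-11 the haplotypes held 19 peaks (APD), 58 (COX), 48 (DBB), 40 (MANN), 44 (MCF), 55 (QBL) and 47 (SSTO). In U937 they held 18, 43, 51, 32, 42, 46 and 35 in the same order. DBB was the haplotype with more U937 than MV4-11 peaks. Per Mb of known sequence the range was 8.01 to 12.8 in MV4-11 and 7.59 to 12.1 in U937, with the lowest density on APD in both lines. Between 53.2% and 61.4% of the MV4-11 peaks of a haplotype were shared, and between 55.6% and 76.7% of the U937 peaks.

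MHC peaks were placed on the primary chromosome by alignment and joined to loci where placements overlapped, which gave 93 loci in MV4-11 and 88 in U937. Of the 84 MV4-11 loci carried by at least 2 haplotypes, 31 had a peak on every haplotype that carries them, 31 on several and 22 on 1. In U937 the 86 such loci divided into 21, 38 and 27. Counted by copies, 63.1% of 458 haplotype copies held a peak in MV4-11 and 53.9% of 473 in U937.

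Loci occupied on many haplotypes more often held a peak on the primary sequence too. A locus was counted when any of its placed peaks overlapped a primary one. Loci on many haplotypes thus had more chances to be counted. The primary copy had an MV4-11 peak at 6 of the 31 loci seen on 1 haplotype, and at 40 of the 44 loci seen on 4 or more. In U937 the counts were 4 of 29 and 25 of 33. Over all MHC loci it was 55 of 93 (59.1%) in MV4-11 and 37 of 88 (42.0%) in U937. Over all alternates, 467 of 1093 placed MV4-11 peaks (42.7%) and 322 of 683 placed U937 peaks (47.1%) were repeated on another alternate.

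**Figure D2:**
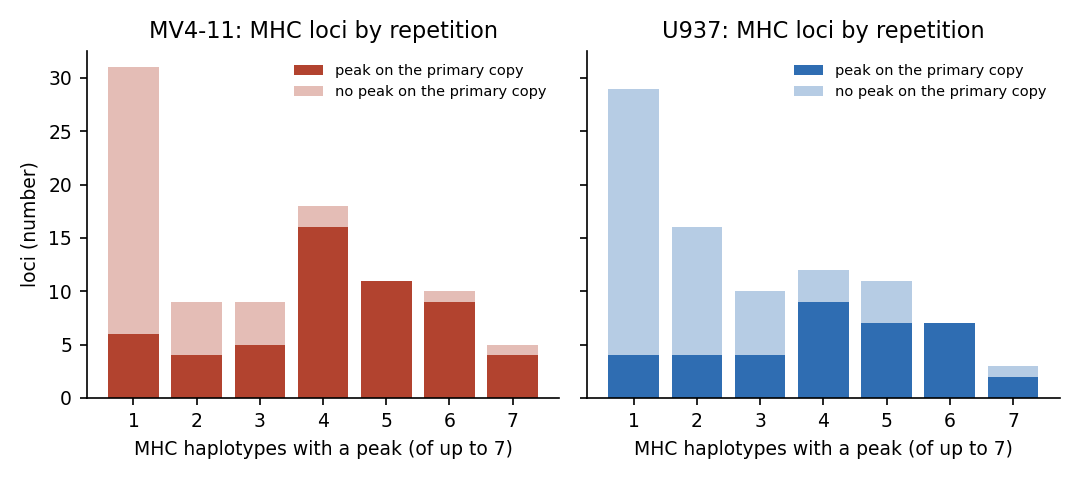
Number of MHC loci (vertical axis) by the number of haplotypes on which the locus held a peak (horizontal axis), for MV4-11 (left) and U937 (right). The solid part of each bar has a peak of the same line on the primary copy, which holds for 6 of 31 MV4-11 loci on 1 haplotype and for 11 of 11 on 5 haplotypes.

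Most MHC peaks lay at promoters. A promoter peak is one whose placed midpoint lies within 1 kb of a TSS of a protein-coding gene. Over all alternates 55.3% of placed MV4-11 peaks (52.3 to 58.2) and 61.6% of placed U937 peaks (57.9 to 65.2) were promoter peaks, against a background of 37.2% and 46.5%. The share was 82.0% and 77.2% in the MHC, 69.7% and 74.6% in the leukocyte receptor complex, 57.4% and 59.7% on chromosome 17, and 36.3% and 44.3% on the alternates of other chromosomes, which is near the background. Counting each locus once, 45.9% of 740 MV4-11 loci and 53.5% of 443 U937 loci were at promoters.

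A TSS could be carried to at least 1 alternate for 803 protein-coding genes. For counts of genes any base of a peak, not its midpoint, had to lie within 1 kb of the TSS. Such a peak was found for 316 genes in MV4-11 (39.4%) and 251 in U937 (31.3%), against a background of 59.0% and 50.5% of all protein-coding genes on the main chromosomes. On the primary sequence the same 803 genes had a promoter peak in 318 and 237 cases. Of 183 MHC genes, 81 had an alternate promoter peak in MV4-11 (44.3%) and 66 a primary one, and in U937 the counts were 77 (42.1%) and 47. Most MHC genes have several alternate copies and 1 primary copy on which a peak could be called, so these counts are not like for like. In the leukocyte receptor complex 21 of 42 genes had an alternate promoter peak in MV4-11 and 13 in U937 (31.0%), with primary counts of 17 and 11. On chromosome 17 it was 45 (36.3%) and 36 (29.0%) of 124, with primary counts of 44 and 34.

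LST1, MDC1 and TUBB were the MHC genes with a promoter peak on all 7 haplotypes in both lines. LST1 is a transmembrane protein of myeloid cells and other leukocytes. Its MV4-11 peak measured 935 bp on APD, 1254 on COX, 723 on DBB, 1393 on MANN, 844 on MCF, 1160 on QBL and 1414 on SSTO, and 1117 bp on the primary sequence. In U937 it measured 694, 946, 774, 873, 870, 740 and 686 bp in that order, and 1187 bp on the primary sequence. The sequence under each of these peaks was identical to the primary copy, as in the stretch printed above, so widths of identical copies varied between 723 and 1414 bp within the MV4-11 library. MDC1, a mediator of the DNA damage response, and TUBB, a beta tubulin, share a divergent promoter. Its alternate peaks were 567 to 661 bp wide in MV4-11 and 399 to 586 bp in U937, and the primary promoter had a peak in MV4-11 only.

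Pairs of genes under 1 peak were common in this group. MRPS18B, a mitochondrial ribosomal protein, and PPP1R10, a nuclear regulator of protein phosphatase 1, had a shared peak on all 6 haplotypes that carry it in both lines, of 838 to 972 bp in MV4-11 and 405 to 717 bp in U937. GNL1 and PRR3 had 1 on 6 haplotypes in both lines. PPP1R18, an actin-binding phosphatase regulator, had one on 6 of 6. APOM and BAG6, an apolipoprotein and a chaperone cofactor, had one on 6 haplotypes in MV4-11 and 5 in U937. CSNK2B, the regulatory subunit of casein kinase 2, GPANK1 and ENSG00000263020 had one on 5 in MV4-11 and 6 in U937. RXRB, a retinoid X receptor, had peaks on 5 of 5 haplotypes in both lines.

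The remaining promoters in the order of repetition varied more between haplotypes or lines. CLIC1, an intracellular chloride channel protein, had peaks on 6 haplotypes in MV4-11 and 5 in U937, and its neighbours MSH5 and MSH5-SAPCD1 on 5 of 7 in both. ABCF1, a translation factor, had them on 5 and 5 of 6. GPSM3, a G protein modulator of leukocytes, had them on 6 and 4 of 6. NEU1, the lysosomal sialidase, had them on 4 and 6 of 7, and PPP1R11, a phosphatase 1 inhibitor, on 7 and 3 of 7. Among these, CLIC1, MSH5, MSH5-SAPCD1, ABCF1 and GPSM3 had no primary promoter peak in U937.

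**Figure D3:**
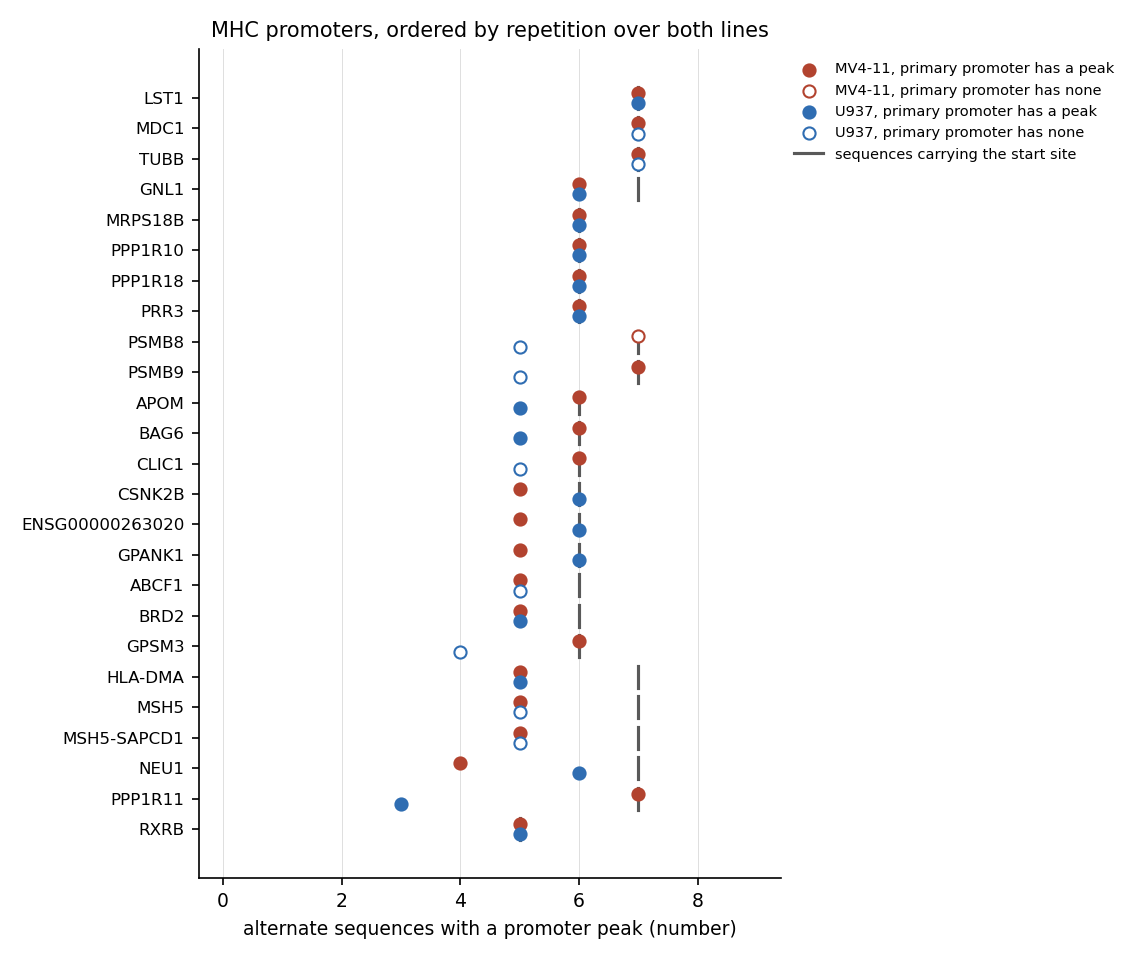
Number of alternate sequences with a promoter peak (horizontal axis) for the 25 MHC genes occupied on most of them, in MV4-11 (red) and U937 (blue). The vertical tick is the number of alternates that carry the TSS, and open circles are genes whose primary promoter has no peak in that line, such as TUBB in U937 and PSMB8 in both.

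BRD2, a bromodomain protein that binds acetylated histones, had the widest MHC peaks. In MV4-11 the widest BRD2 peak measured 2623 bp on COX, 2026 on MANN, 4079 on MCF, 3983 on QBL and 3153 on SSTO, against 951 bp on the primary sequence. In U937 it measured 1637, 833, 2314, 1627 and 1309 bp on the same haplotypes, against 2608 bp on the primary sequence. The alternate peaks were thus wider than the primary peak on all 5 haplotypes in MV4-11 and narrower on all 5 in U937. On some haplotypes the region was split into 2 or 3 peaks. Identity to the primary sequence was at least 99.77%.

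Antigen presentation genes were counted by role. All 5 listed genes of peptide processing and loading had an alternate promoter peak in both lines, beside 44.3% and 42.1% of all MHC genes. On the primary sequence 3 of them had one in MV4-11 and 2 in U937. The list was chosen with earlier results of these data known, and its 5 genes are not separate events, since PSMB9 was counted through peaks at PSMB8 and TAP1. PSMB8, an immunoproteasome subunit, had a peak on 7 of 7 haplotypes in MV4-11 and on 5 in U937, and on the primary sequence in neither. Its MV4-11 peaks measured 763 bp (APD), 613 (COX), 443 (DBB), 556 (MANN), 622 (MCF), 544 (QBL) and 505 (SSTO). Its U937 peaks measured 911 bp (COX), 577 (DBB), 504 (MCF), 468 (QBL) and 696 (SSTO), and every one was identical in sequence to the primary copy. PSMB9, the neighbouring subunit, has a TSS within 1 kb of the PSMB8 peak and another beside TAP1, and was counted on 7 and 5 haplotypes, with a primary peak of 895 bp in MV4-11 that TAP1 shares. TAP1 and TAP2, the subunits of the peptide transporter, had peaks on 4 and 1 of 7 haplotypes in MV4-11 and on 3 and 5 in U937. TAPBP, or tapasin, had them on 4 of 4 in both lines.

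Among 8 class I heavy chain and related genes, 3 had an alternate promoter peak in MV4-11 and 2 in U937, beside the 44.3% and 42.1% of all MHC genes. HLA-C had one on MANN (489 bp, 97.75% identity to the primary sequence) and HLA-B on QBL (306 bp, 95.10%), both in MV4-11 alone. MICA, a stress ligand of the NKG2D receptor, had one on MANN in MV4-11 and on MANN, QBL and SSTO in U937, with none on the primary sequence. MICB had one on 3 of 7 haplotypes in U937. Class I genes share long stretches of near-identical sequence, so the gene of origin is uncertain there. Of 13 class II genes only HLA-DMA was counted, in both lines, and its TSS lies under the BRD2 peak.

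Of 54 genes listed as housekeeping and matched, 45 had an alternate promoter peak in MV4-11 and 44 in U937, with 43 in both, against 40 and 27 on the primary sequence. The list is broad and includes POU5F1 and MSH5. It was chosen with earlier results of these data known, and several of its genes share a peak, such as MRPS18B and PPP1R10. Over all MHC genes the alternate share was 44.3% and 42.1%. Of 8 cytokine and inflammation genes 3 had one in each line, a share near that of all MHC genes: LST1 in both, AIF1 in both on 4 and 2 of 5 haplotypes, NFKBIL1 on 2 of 6 in MV4-11 and IER3 on 1 of 5 in U937. TNF had none on its 6 alternates and a primary peak of 353 bp in MV4-11. Of 4 complement genes C2 had one, on 2 of 7 haplotypes in both lines. None of 13 olfactory receptor genes had a promoter peak on any copy.

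In the leukocyte receptor complex the peaks lay on 9 of 35 alternates, which are 0.418 to 1.07 Mb long. The other 26, of 0.123 to 0.282 Mb, had none in either line. None of the 7 KIR genes with a TSS on an alternate had a promoter peak there or on the primary sequence. The peaks formed 36 loci in MV4-11 and 20 in U937, and 13 and 4 of these were occupied on every alternate that carries them.

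The most repeated genes of the complex, summed over both lines, were housekeeping genes at its centromeric edge, but not all such genes were repeated. NDUFA3 had an alternate promoter peak on 0 of 9 alternates in both lines, and RPS9 on 1 of 9 in each. Both genes had a primary promoter peak in both lines. CNOT3, a subunit of the CCR4-NOT deadenylase, had a peak on 9 of 9 alternates in both lines, of 445 to 585 bp in MV4-11 and 431 to 775 bp in U937, and a primary peak of 958 bp in MV4-11 alone. PRPF31, a splicing factor mutated in retinitis pigmentosa, and TFPT, a subunit of the INO80 remodeller, share a promoter that was occupied on 9 of 9 in both lines and on the primary sequence in both. MBOAT7, a lysophospholipid acyltransferase, and TSEN34, a tRNA splicing endonuclease subunit, share one occupied on 9 alternates in MV4-11 and 8 in U937. LENG1 and TMC4 had peaks on 9 and 5. LENG8 and LENG9, farther from that edge, had them on 3 of 3 in both lines. Over the list, 11 of 16 housekeeping genes had an alternate promoter peak in MV4-11 and 10 in U937, against 11 and 8 on the primary sequence. Of all 42 genes of the complex, 21 had an alternate promoter peak in MV4-11 and 13 in U937. The list was chosen with earlier results of these data known. Several of its genes share a peak, such as PRPF31 and TFPT, so its counts are not separate events.

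EPS8L1, an EPS8-related regulator of the actin cytoskeleton, was the clearest difference between the lines in the complex. It had a promoter peak on 9 of 9 alternates and the primary sequence in MV4-11, of 293 to 1411 bp on the alternates, and none on any copy in U937. With 1 library per line this difference has no replicate check.

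Of 12 leukocyte immunoglobulin-like receptor (LILR) and LAIR genes, 9 had an alternate promoter peak in MV4-11 and 3 in U937, beside 21 and 13 of all 42 genes of the complex. Primary counts were 4 and 2, and LILRA6 (665 bp) and LAIR2 (394 bp) had a primary promoter peak in U937 alone. LAIR1, an inhibitory collagen receptor, had peaks on 4 of 4 alternates in MV4-11 and 2 in U937. LILRA2, an activating receptor, had them on 3 of 3 and 2 of 3. LILRB2, an inhibitory receptor for HLA class I, had 1 of 3 in both lines. LILRA5 had 2 of 4 in MV4-11, and LILRA1, LILRA4, LILRB1, LILRB3 and LAIR2 had 1 each in MV4-11 and no alternate promoter peak in U937. The LILR genes are close relatives in tandem, so their counts are uncertain where reads fit several members. None of 6 other immune receptor genes of the complex had an alternate promoter peak, and OSCAR had a primary one in both lines (441 and 523 bp). Among these, GP6, a collagen receptor of platelets, had U937 peaks of 513 to 748 bp in an exon on 4 alternates.

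**Figure D4:**
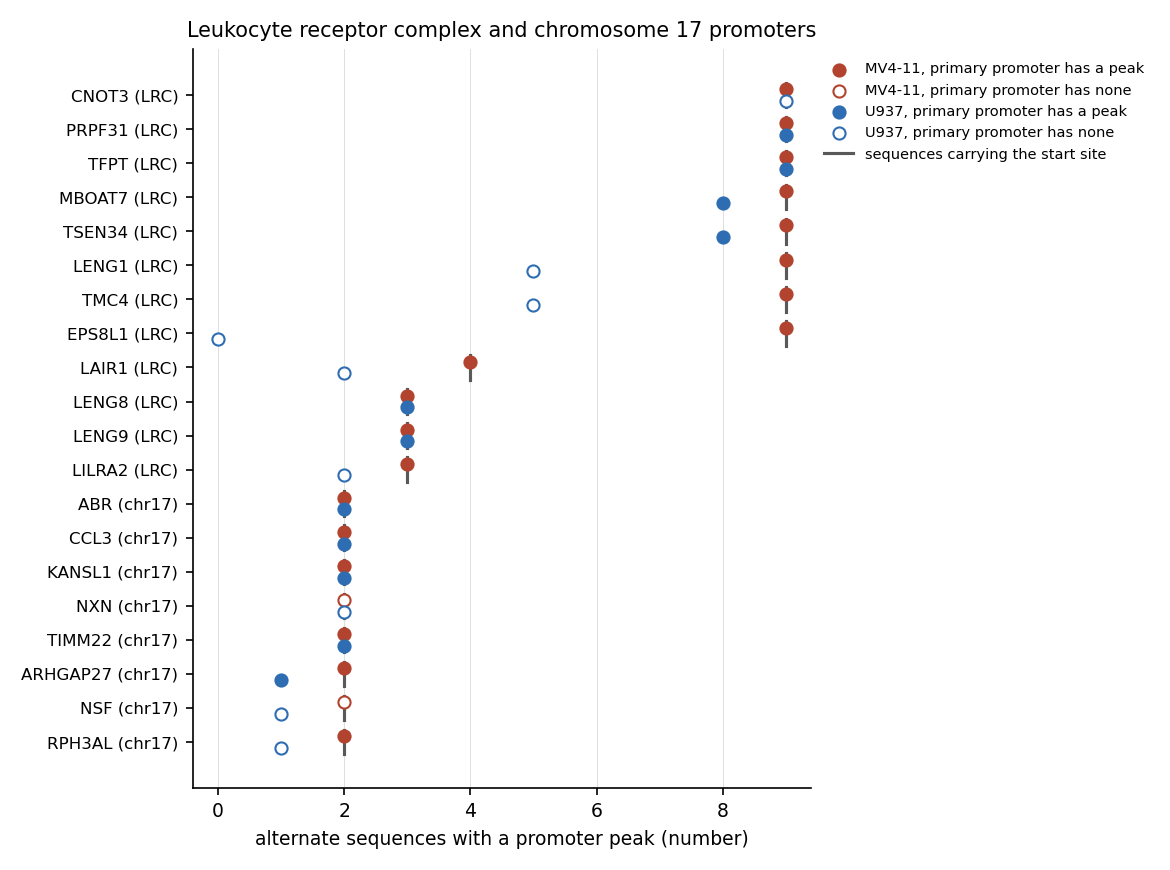
Number of alternate sequences with a promoter peak (horizontal axis) for the 12 genes of the leukocyte receptor complex (LRC) and 8 of chromosome 17 among those occupied on most of them, in MV4-11 (red) and U937 (blue). Ticks are the alternates that carry the TSS and open circles are genes with no primary promoter peak in that line. EPS8L1 has 9 alternates in MV4-11 and 0 in U937.

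Chromosome 17 loci are carried by at most 2 alternates. Of 41 MV4-11 loci on 2 alternates 17 had a peak on both, and of 28 in U937 it was 8. Of 12 listed genes of the inversion region, the same 5 had an alternate promoter peak in both lines, beside 36.3% and 29.0% of all chromosome 17 genes. The rest of the list had no promoter peak on any copy. KANSL1, a scaffold of the NSL acetyltransferase complex, had promoter peaks on 2 of 2 alternates in both lines. At its promoter loci they measured 338 to 808 bp in MV4-11 and 619 to 1454 bp in U937. MV4-11 peaks from separate places on a single alternate were placed at the same KANSL1 loci. NSF, an ATPase of vesicle fusion, had peaks on 2 alternates in MV4-11 and 1 in U937, and none on the primary sequence. PLEKHM1, a lysosomal adaptor, had 1 of 2 in each line. Nearby, ARHGAP27, a GTPase-activating protein, had 2 and 1.

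The chemokine cluster had 3 of 10 genes with an alternate promoter peak in each line, near the 36.3% and 29.0% of all chromosome 17 genes. CCL3, a chemokine that draws monocytes, had one on 2 of 2 alternates in both lines, of 612 to 696 bp in MV4-11 and 369 to 530 bp in U937. The U937 peak of 530 bp reaches into the promoter window, but its midpoint lies in an intron 1004 bp from the TSS. CCL4 had 2 in MV4-11 and none in U937. CCL3L3, a recent copy of CCL3 whose reads may be shared with it, had 1 in each line, on different alternates. CCL5 had a U937 peak on its single alternate.

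At the tip of the short arm, ABR, a regulator of small GTPases, TIMM22, a mitochondrial import channel, and NXN, a thioredoxin-like oxidoreductase, had peaks on 2 of 2 alternates in both lines. The ABR peaks measured 560 to 958 bp in MV4-11 and 977 to 1833 bp in U937, and those of TIMM22 891 to 1206 and 1273 to 1684 bp. NXN had none on the primary sequence in either line. RPH3AL had peaks on 2 alternates in MV4-11 and 1 in U937.

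Among the other chromosomes few genes lie on more than 1 alternate. NDUFA6, a subunit of respiratory complex I, and SMDT1, a regulator of the mitochondrial calcium uniporter, had peaks on 3 of 3 chromosome 22 alternates in both lines. The NDUFA6 peaks were 1034 to 1110 bp wide in MV4-11 and 1140 to 1178 bp in U937, with a primary peak in MV4-11 alone. PPP2R3B, a phosphatase 2A subunit at the tip of chromosome X, had peaks on 2 of 2 in both lines. BDP1, a subunit of TFIIIB, had them on 2 in MV4-11 and 1 in U937. AK6, ARHGAP11A, ARHGAP11A-SCG5, ARHGAP11B, ASB2 and ATP23 had 1 on their single alternate in both lines, and ARHGAP11A and ARHGAP11B are duplicates of each other.

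The 5 widest alternate peaks of each line were all shared. In MV4-11 they were a peak of 4237 bp beside AZU1, a granule protein of myeloid precursors, the BRD2 peaks on MCF, QBL and SSTO, and a peak of 3263 bp at CTDP1, a phosphatase of RNA polymerase II. In U937 they were peaks of 3289 bp at MROH6, 2470 bp at CAPN15, 2433 bp in an intron of KCNQ1, 2342 bp at MIF, a macrophage cytokine, and the BRD2 peak of 2314 bp on MCF. Each had a primary peak in its own line.

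Peaks on alternates mostly had a counterpart on the primary sequence. Of 1093 placed MV4-11 peaks 797 (72.9%, 70.2 to 75.5) had an MV4-11 peak there, and of 683 placed U937 peaks 421 (61.6%, 57.9 to 65.2) had a U937 peak. Sequence was identical to the primary copy for 795 MV4-11 peaks (72.7%) and 463 U937 peaks (67.8%). Among identical peaks a primary peak was present for 75.2% (72.1 to 78.1) in MV4-11 and 67.4% (63.0 to 71.5) in U937. Among peaks of 99% to under 100% identity the shares were 71.0% (65.1 to 76.3) and 50.3% (43.3 to 57.2). Among those of 95% to under 99% they were 46.4% of 28 (29.5 to 64.2) and 52.6% of 19 (31.7 to 72.7). Below 95% they were 38.9% of 18 peaks (20.3 to 61.4) in MV4-11, and 0 of 4 in U937 (0 to 49.0).

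**Figure D5:**
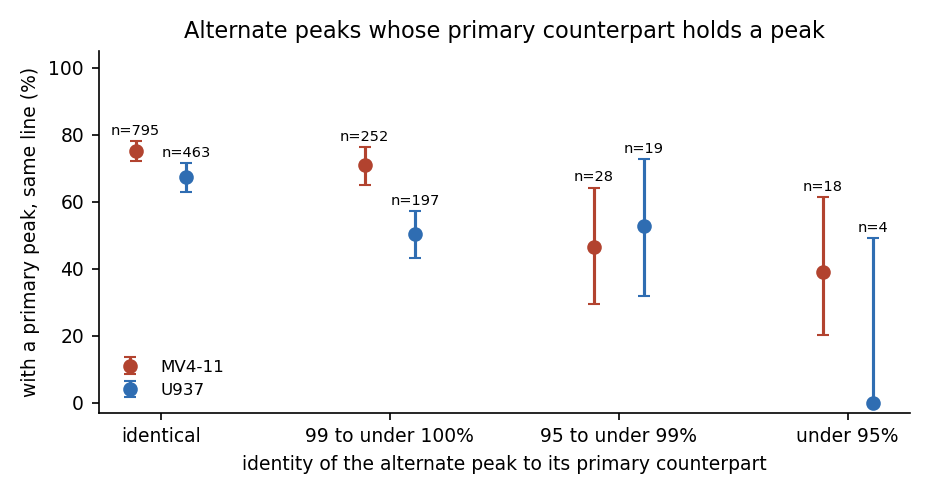
Share of alternate peaks with a peak of the same line on the primary sequence (vertical axis, percent) by identity to that sequence (horizontal axis), for MV4-11 (red) and U937 (blue). Points are shares, bars 95% Wilson intervals and n the number of peaks. The share is 75.2% and 67.4% for identical peaks and 38.9% and 0% for those under 95%.

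Alternate peaks with a primary peak were wider, with a median of 692 bp against 401.5 bp in MV4-11 and 729 against 502 bp in U937. Where both copies held a peak, the alternate one was narrower in 435 of 797 MV4-11 cases and wider in 355, and in U937 it was narrower in 223 of 421 and wider in 197. In the other direction, 70.2% of 1123 pairs of a primary MV4-11 peak and an alternate copy had a peak on the copy, and 61.9% of 677 pairs in U937.

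For 13 genes both lines had an alternate promoter peak and neither had a primary one. They were PSMB8, AIF1, TRIM39, DHX16, MICA, NRM and EHMT2 in the MHC, NXN, NSF and MRPL45 on chromosome 17, and IFI27L2, NAIP and SERPINA1 elsewhere. NXN was occupied on 2 of 2 alternates in both lines, and PSMB8 on 7 of 7 in MV4-11 and 5 in U937. The MRPL45 peak measured 1088 bp in MV4-11 and 961 bp in U937 on its single alternate, which differs at 1 base in the stretch printed above. The reverse, a primary promoter peak in both lines and none on any alternate, was found for 27 genes.

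A placement was lacking for 13 MV4-11 peaks and 2 U937 peaks, because under 50% of their bases aligned to the parent chromosome. None was shared. The MV4-11 peaks lay on alternates of chromosomes 2, 8, 10, 11, 17 and X and measured 288 to 3117 bp, the widest on chromosome 2. The U937 peaks lay on chromosomes 5 and 15 and measured 377 and 369 bp.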

How the data were processed

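ZNF217 CUT&Tag peaks were analysed in MV4-11 and U937, with 1 library per line, grouped by sample title. The 2 IgG samples are not analysed here. Per the submitters' processing notes and the paper's methods, the authors aligned reads to hg38 with Bowtie2 2.4.4 and called peaks per library with MACS3 3.0. Whether reads of low mapping quality were kept, or IgG served as control, is not given in the sources used here. The deposited values are of another unit than signal, namely the chromosome, start and end of each peak, without score. The count base of the start is not stated (1 bp uncertainty).

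Each of the 261 alternates was aligned to its parent chromosome with minimap2 2.31 (asm20), and a peak was placed where at least 50% of its bases aligned. Genes came from GENCODE 44, which covers the primary chromosomes. The MHC was taken as 28 to 34 Mb of chromosome 6, and the leukocyte receptor complex as 53 to 56 Mb of chromosome 19. Overlaps were computed with Python 3.11.15, intervals with SciPy 1.17.1, and figures with Matplotlib 3.10.9. Placement was tested on simulated sequence.

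Genes were named in order of the number of occupied alternates summed over both lines, up to 25 in the MHC, 12 in the receptor complex, 10 on chromosome 17 and 10 elsewhere, with list members (some are not reported here), the 5 widest peaks per line and unplaced peaks. Members and lists were chosen with earlier results of these data known. Alternatives changed the overlap, width, merging, promoter distance, counting unit and alignment.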

Additional observations from a re-analysis of the deposited data

How the results depend on the processing

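Of 58 values recomputed under alternatives, 39 stayed within their interval, or within 1.5 times for counts of peaks, and 19 moved. Without the chromosome 6 alternates U937 had 415 peaks, the shared share was 34.9% in MV4-11, the share repeated on another alternate was 24.3% in MV4-11 (42.7% with them) and 20.3% in U937 (47.1% with them), and the promoter share was 44.9% and 51.6%. Counting each locus once, U937 had 443 loci, the shared share was 38.1% in MV4-11, and the share with a primary peak was 66.8% in MV4-11. With a reciprocal overlap of 50% the shared share was 27.0% in MV4-11 and 43.6% in U937, and the share with a primary peak 57.0% and 47.0%. Allowing 500 bp between peaks gave 75.6% with a primary peak in MV4-11. The promoter share was 59.7% in MV4-11 for peaks of at least 400 bp, 49.1% and 56.2% in MV4-11 and U937 within 500 bp of a TSS, and 64.2% and 68.8% within 3 kb. Merging of peaks, minimap2 asm5 and placement of each peak by its own sequence moved no value. No paired analysis was possible because each line had 1 ZNF217 library and no replicate numbers. Without depth or heights, a missing peak on 1 copy could not be told from a peak just under the caller's threshold.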
